A study of Macaca mulatta with 52 samples.

Results

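The genes described here encode the proteasome, the particle that degrades ubiquitin-tagged proteins, in single rhesus monkey embryos from the 8-cell stage to the blastocyst. Members were taken by name: 44 of the 26309 identifiers in the count table had a symbol of the form PSMA to PSMG followed by a number. Of these, 42 code for subunits, activators, the PI31 protein or assembly chaperones, and the other 2 (PSMC3IP, a recombination factor, and PSME3IP1, a partner of an activator) are not subunits and were kept apart. PSMA5, PSMB6, PSMB7, PSMB10, PSMD7 and PSMG2 had no row under their symbol and were not analysed here.

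The study profiled macaque embryos by RNA-seq after in vitro fertilization. Oocytes had matured in vivo in females stimulated with recombinant human FSH and then hCG, and embryos grew in a chemically defined medium that later held bovine calf serum, with or without relaxin. The labels do not say which embryos received relaxin, nor which embryos share parents, and they name the stages 8-cell, morula, expanded blastocyst and delayed blastocyst without describing the delay. Libraries were made with 2 kits: SPIA, a linear amplification of cDNA from total RNA, and SoLo, a low-input kit in which ribosomal sequences are depleted with InDA-C primers. Each library came from 1 sample that the labels list separately, and p-values measure the spread between those samples. SPIA libraries came from 9 embryos at the 8-cell stage, 11 at the morula stage, 14 expanded and 2 delayed blastocysts. SoLo libraries came from 4 embryos at the 8-cell stage, 3 morulas and 6 expanded blastocysts. All 13 SoLo libraries came from embryos that also had a SPIA library, so the kits do not give independent embryos.

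The smallest SPIA library held 0.601 M counts and the largest 21 M, and SoLo libraries held between 5.70 and 10.6 M. The summed level of 5 genome activation markers (ZSCAN4 among them) had a median of 567 counts per M of library size (CPM, scaled within each kit) in SPIA 8-cell embryos (range 198 to 910), 43.6 in morulas (2.33 to 701) and 2.44 in expanded blastocysts. The highest morula sum, 701 CPM in 022916_02, lay above the 8-cell median and went against its label, and the next highest morula held 79.1 CPM. The summed level of 3 trophectoderm markers went from a median of 3.0 to 25.5 and 526 CPM over the same groups. Cumulus cells had been removed by pipetting, but 3 of the 8-cell embryos (020816_06, 020816_07 and 112815_02) still held cumulus cell transcripts in both kits. Their INHA level was between 9.25 and 15.1 CPM in SPIA, against at most 0.185 in the other 6. The summed level of 9 cumulus markers in SPIA parted them less sharply. It was 386, 1617 and 770 CPM in the 3, and 3.92 to 218 CPM in the other 6. Among those 6, 011516_02 held 218 CPM and 020816_09 held 114 CPM. The 3 embryos named for cumulus transcripts gave 3 of the 4 SoLo 8-cell libraries. Their summed level of 9 cumulus markers in SoLo was 575, 2262 and 1296 CPM, against 20.6 in 020816_08. Every SoLo change from the 8-cell stage rests on this group. Leaving out all 3 would leave only 020816_08, so no SoLo change was fitted without them. The SPIA 8-cell library 020816_09 stood apart, with CSF1R at 637 CPM and several members near 0. Titles carry a code before the embryo number: SPIA 8-cell embryos and morulas share only the code 020816 (5 against 3 libraries), and expanded blastocysts share no code with either stage, so stage and whatever the code marks cannot be told apart there. In whole embryos a change in the number of cells of a type and a change in RNA per cell also cannot be told apart.

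The proteasome has a barrel-shaped core of stacked rings. The alpha rings form the gate, and the beta rings hold the proteolytic sites. A regulatory particle binds the end of the barrel: its base is a ring of ATPases that unfold substrates, and its other subunits recognise, hold and strip ubiquitin. Other activators can replace the regulatory particle, and dedicated chaperones help assemble both parts. In an oocyte and early embryo, degradation of maternal proteins accompanies the handover to the embryonic genome. In cells exposed to interferon, alternative beta subunits (PSMB8, PSMB9, PSMB10) form the immunoproteasome.

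Stage changes were tested with edgeR's quasi-likelihood test within each kit, and a gene was called at an adjusted p under 0.05 over all genes tested. The low-count filter kept 40 of the 42 members in SPIA (not PSMB8 or PSMB11) and 40 in SoLo (not PSMB9 or PSMB11). From 8-cell to morula, SPIA called 8 of 40 members (4 higher, 4 lower), against 19.4% of all 15578 genes (9.06% higher, 10.3% lower). SoLo called 12 of 40 members (10 higher, 2 lower), against 16.7% of 14196 genes (9.78% higher, 6.92% lower). The members' median log2 change was -0.03 in SPIA, where the median over all genes was -0.14, and 0.49 in SoLo, where it was -0.06. In SPIA these medians were 0.13 and 0.10 by limma-voom with the title code as a random effect. The SPIA share of members called was near that of all genes, and the SoLo share was above it. The CPM ranges of the stages did not overlap for 17 of 40 members in SoLo (23.9% of all genes) and for 0 of 40 in SPIA (0.167%). PSMA1, PSMB5 and PSME4 were called in both kits, all higher in morulas. Without the SPIA morula 022916_02, 8 of 40 members were again called in SPIA (6 higher, 2 lower), against 23.1% of all genes (9.54% higher, 13.6% lower). PSMD1 and PSMD4 were no longer called there, and PSMA4 and PSMD14 were added. Without the 8-cell embryo 020816_06, 5 of 40 were called (3 higher, 2 lower), against 18.7% of all genes (8.68% higher, 10.0% lower).

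From 8-cell to expanded blastocyst, SPIA called 11 of 40 members (7 higher, 4 lower), against 36.6% of all genes (12.9% higher, 23.7% lower), and SoLo called 18 of 40 (15 higher, 3 lower), against 38.4% (18.6% higher, 19.8% lower). The members' median log2 change was -0.19 in SPIA (all genes -0.43) and 0.46 in SoLo (all genes -0.05). By limma-voom the SPIA median was 0.10 for the members and 0.51 for all genes, so its sign depended on the fit. Ranges did not overlap for 16 of 40 members in SoLo (33.2% of all genes) and 0 of 40 in SPIA (2.12%). Called in both kits with the same sign were 8 members: PSMA1, PSMA4, PSMB5, PSMC2, PSMC6 and PSME2 higher, PSMC4 and PSMD9 lower. The 8-cell libraries are shared by these contrasts and those with morulas, and the values are given side by side only. Between morula and expanded blastocyst edgeR called no member in either kit, against 14.7% of genes in SPIA (4.71% higher, 9.95% lower) and 1.14% in SoLo (0.113% higher, 1.03% lower). Ranges did not overlap for 0 of 40 members in SPIA (0.0449% of all genes) and 3 of 40 in SoLo (10.3%). The members' median log2 change was -0.23 in SPIA (all genes -0.29; 0.13 and 0.41 by limma-voom) and -0.05 in SoLo (all genes 0.05). At an unadjusted p under 0.05 there were 3 of 40 members in SPIA, against 4486 of 15578 genes. In SoLo there were 6 of 40 members, against 2286 of 14196 genes. DESeq2 called 0 of 40 members in SPIA, against 11.8% of genes, and 1 of 40 in SoLo (PSME2, higher), against 4.84%. In SPIA limma-voom called 3 of 40 (PSMA4, PSMC2 and PSME2, all higher), against 14.3% of genes (11.2% higher, 3.18% lower).

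**Figure D1:**
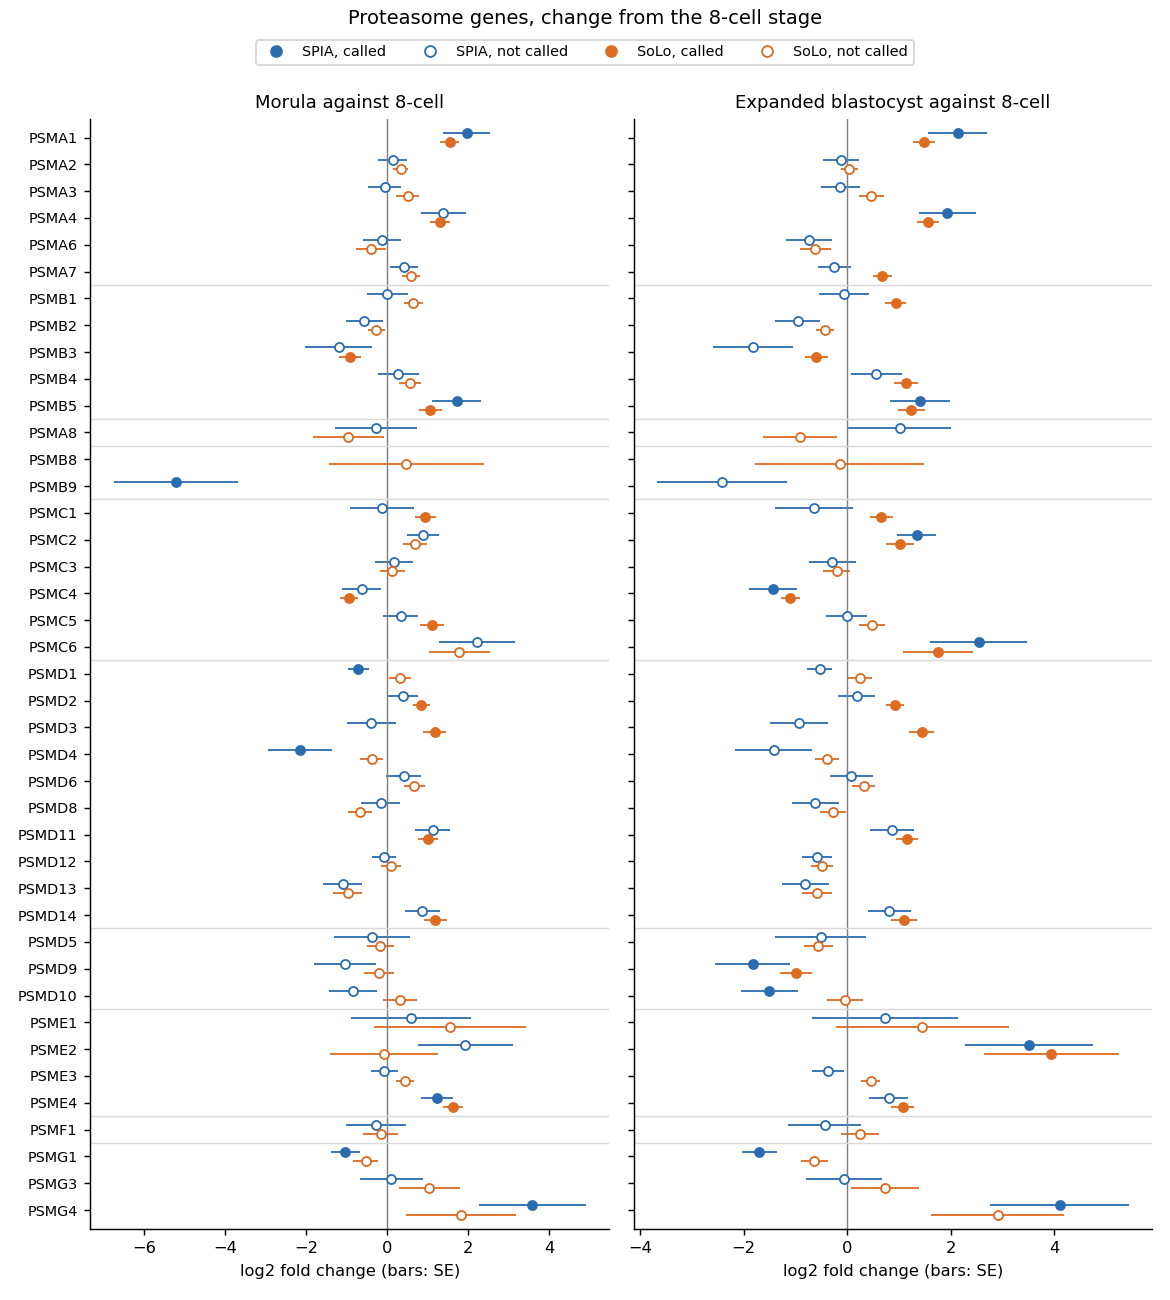
Log2 fold change of each tested member from the 8-cell stage to the morula (left) and to the expanded blastocyst (right), in SPIA (blue) and SoLo (orange). Points are edgeR estimates, bars are 1 standard error, filled points have an adjusted p under 0.05, and grey lines separate roles. PSMA1 and PSMB5 are filled in all 4 comparisons.

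Among the 6 alpha ring genes, PSMA1 and PSMA4 rose from 8-cell to expanded blastocyst in both kits. PSMA1 in SPIA 8-cell embryos had a lowest, median and highest level of 0.182, 14.9 and 25.1 CPM. In SPIA morulas these were 4.69, 31.9 and 251 CPM, in expanded blastocysts 22.9, 59.3 and 148 CPM, and the delayed blastocysts had 65.6 and 85.7 CPM. Most morulas were above the 8-cell median, 2 lay below it, and the morula 022916_03 held the highest value. In SoLo the 8-cell embryos had PSMA1 levels of 49.1, 63.4, 79.6 and 83.8 CPM, and the morulas had 194, 202 and 210 CPM. The SoLo expanded blastocysts ran from 151 to 253 CPM with a median of 186, and the 8-cell range overlapped neither later stage. The log2 change from 8-cell to morula was 1.96 ± 0.58 (SE) in SPIA (edgeR adjusted p = 0.0155) and 1.55 ± 0.24 in SoLo (edgeR adjusted p = 0.000337). From 8-cell to expanded blastocyst it was 2.13 ± 0.57 (edgeR adjusted p = 0.00319) and 1.49 ± 0.21 (edgeR adjusted p = 4.99e-05).

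PSMA4, another alpha subunit, was called from 8-cell to expanded blastocyst in both kits. Its SPIA levels had medians of 14.5 CPM in 8-cell embryos (range 2.17 to 43.8), 50.4 in morulas (0.288 to 84.0) and 54.2 in expanded blastocysts (29.7 to 194). In SoLo the 8-cell embryos held 49.7, 49.7, 54.5 and 67.7 CPM, the morulas 109, 147 and 153 CPM, and the expanded blastocysts 128 to 222 CPM (median 154). The SPIA ranges overlapped at every stage, and the SoLo 8-cell range lay below both later stages. The log2 change to the morula was 1.30 ± 0.25 in SoLo (edgeR adjusted p = 0.00184) and 1.39 ± 0.56 in SPIA, which was not called (edgeR adjusted p = 0.0688). It was called there without morula 022916_02 (1.53 ± 0.49, edgeR adjusted p = 0.0212) and without 8-cell embryo 020816_09 (1.75 ± 0.56, edgeR adjusted p = 0.0262). To the expanded blastocyst it was 1.94 ± 0.55 in SPIA and 1.56 ± 0.22 in SoLo.

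The other 4 alpha genes in the table (PSMA2, PSMA3, PSMA6, PSMA7) were not called from 8-cell to morula in either kit. PSMA7 was called from 8-cell to expanded blastocyst in SoLo alone: its levels were 102, 122, 128 and 144 CPM in 8-cell embryos and 154 to 249 CPM (median 195) in expanded blastocysts, without overlap. Its log2 change there was 0.68 ± 0.18 in SoLo (edgeR adjusted p = 0.00829) and -0.25 ± 0.32 in SPIA, where it was not called. PSMA8, which replaces an alpha subunit in testis, was low: its median was 0.858 CPM in SPIA 8-cell embryos, 0.482 in morulas and 1.92 in expanded blastocysts. In SoLo it was higher, at 1.34, 11, 20.1 and 28.7 CPM in 8-cell embryos, 5.64, 6.45 and 11.5 in morulas and 3.52 to 20.5 in expanded blastocysts. PSMA8 was called in no stage contrast.

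Among the beta ring genes, PSMB5, the chymotrypsin-like catalytic subunit, rose in both kits. Its SPIA levels had medians of 25.4 CPM in 8-cell embryos (range 0.547 to 56.9), 103 in morulas (0.792 to 147) and 62.5 in expanded blastocysts (21.6 to 131), with 59.7 and 80.1 CPM in the delayed blastocysts. Of the 11 SPIA morulas 6 were at 103 CPM or more, which no 8-cell embryo reached, and 3 were below the 8-cell median. In SoLo PSMB5 was at 25.7, 35.8, 50.6 and 56.0 CPM in 8-cell embryos, 71.1, 87.6 and 105 in morulas, and 80.7 to 136 (median 98.2) in expanded blastocysts, again with the 8-cell range apart. The log2 change to the morula was 1.72 ± 0.60 in SPIA (edgeR adjusted p = 0.0375) and 1.06 ± 0.29 in SoLo (edgeR adjusted p = 0.0189). To the expanded blastocyst it was 1.4 ± 0.57 (edgeR adjusted p = 0.0495) and 1.24 ± 0.26 (edgeR adjusted p = 0.0013). Without 020816_09 the SPIA change of PSMB5 to the expanded blastocyst was 1.24 ± 0.54 (edgeR adjusted p = 0.0676), and without 020816_06 it was 1.48 ± 0.61 (edgeR adjusted p = 0.0518). Without the 3 embryos with cumulus transcripts its SPIA changes to the morula and to the expanded blastocyst were 1.78 ± 0.72 (edgeR adjusted p = 0.077) and 1.44 ± 0.69 (edgeR adjusted p = 0.101).

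PSMB3, a beta subunit without its own catalytic site, went the other way in SoLo. It was at 91.3, 110, 125 and 171 CPM in 8-cell embryos, 47.3, 69.7 and 81.3 in morulas and 69.0 to 96.0 (median 80.0) in expanded blastocysts. The morulas did not overlap the 8-cell embryos, and 2 expanded blastocysts reached into the 8-cell range. Its log2 change to the morula was -0.91 ± 0.27 (edgeR adjusted p = 0.0276) and to the expanded blastocyst -0.60 ± 0.22 (edgeR adjusted p = 0.0396). Without the 8-cell embryo 112815_02 these were -0.72 ± 0.25 (edgeR adjusted p = 0.0589) and -0.41 ± 0.21 (edgeR adjusted p = 0.146), and neither was called. In SPIA PSMB3 ran from 0 to 142 CPM among 8-cell embryos and was not called (log2 change to the morula -1.20 ± 0.82). PSMB1 and PSMB4 rose from 8-cell to expanded blastocyst in SoLo alone, with log2 changes of 0.94 ± 0.20 and 1.14 ± 0.24 and no overlap with the 8-cell range. In SPIA these changes were -0.06 ± 0.48 and 0.57 ± 0.48, and neither gene was called there.

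**Figure D2:**
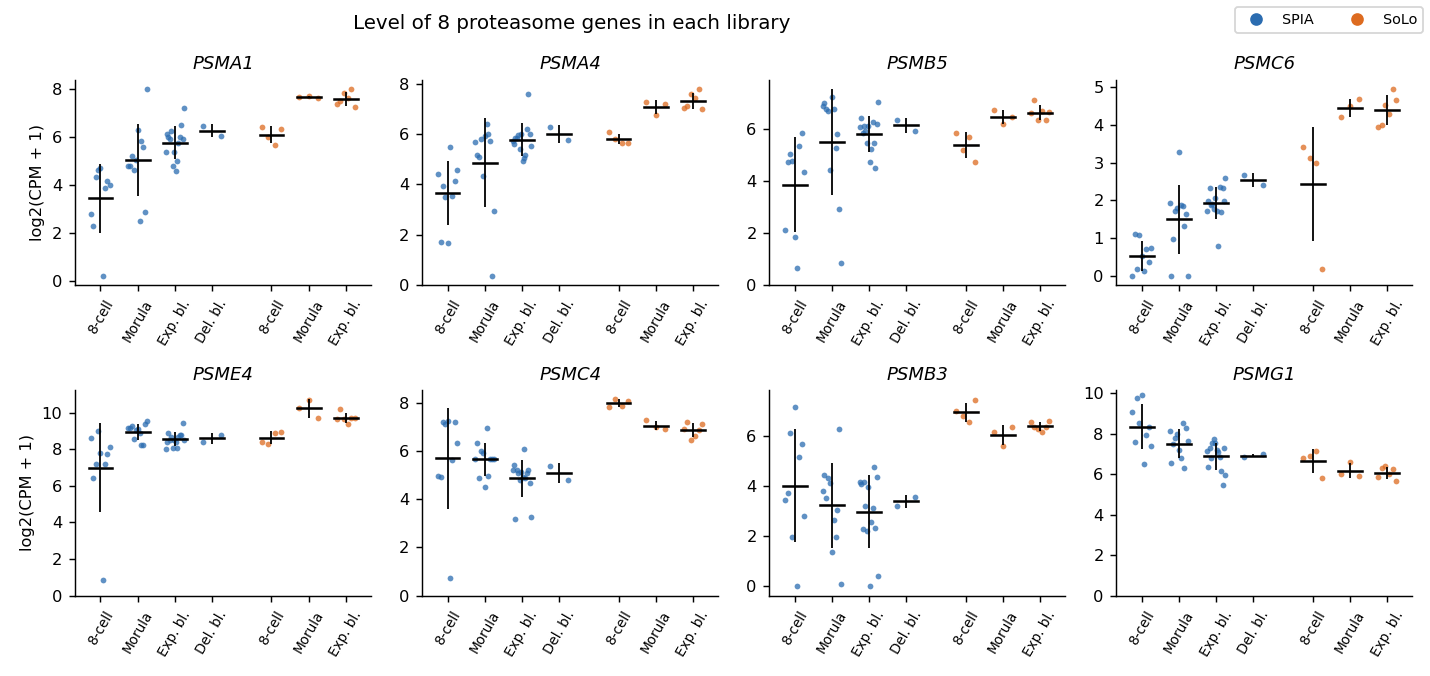
Level of 8 members in every library as log2(CPM + 1), with stages along the axis, SPIA in blue and SoLo in orange. Points are libraries, horizontal lines are group means and vertical bars are 1 SD. PSMA1, PSMA4, PSMB5, PSMC6 and PSME4 lie lower in 8-cell embryos than in later SoLo groups, PSMC4 lies higher there, and the SPIA 8-cell library 020816_09 is near 0 for PSMA1, PSMB5, PSME4 and PSMC4.

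PSMB8, the immunoproteasome counterpart of PSMB5, had no count in any of the 9 SPIA 8-cell libraries, which allows up to 0.0210 CPM over the group when 3 counts are taken as the limit (counting error only). It reached at most 0.999 CPM in SPIA morulas and 3.82 in SPIA expanded blastocysts, and at most 4.85 CPM in any SoLo library. The ratio of PSMB8 to PSMB5 is not reported, since in a library without PSMB8 counts it depends only on the PSMB5 count.

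PSMB9, also an immunoproteasome subunit, was called lower in SPIA morulas (log2 change -5.22 ± 1.53, edgeR adjusted p = 0.0145). In the 9 SPIA 8-cell embryos it was at 0 CPM in 3, between 0.0378 and 8.50 in 5, and at 23.0 in 112815_02. All but 2 of the 11 morulas had no count, and the highest had 0.966 CPM. The ranges overlapped, and 4 of the 8-cell embryos held over 3 CPM. In 112815_02 the summed level of 9 cumulus markers was 770 CPM, and it was 3.92 and 21.9 CPM in the 8-cell embryos 020816_10 and 112815_01, where PSMB9 was at 3.29 and 8.50 CPM. Without the 3 embryos with cumulus transcripts the log2 change was -4.13 ± 1.53 and missed the threshold (edgeR adjusted p = 0.0517). In SoLo, PSMB9 was at 0, 0, 0.226 and 2.61 CPM in 8-cell embryos, including 0 in 112815_02, and it did not pass the filter. In the RefSeq annotation PSMB9 overlaps TAP1, so reads of both may be counted together unless strand was used.

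PSMB11, a subunit of thymic epithelium, was at 0 in every SPIA 8-cell, morula and delayed blastocyst library. Its highest SPIA level was 0.161 CPM, in an expanded blastocyst. In SoLo it was at 11.1 CPM in the 8-cell embryo 112815_02 and 1.85 in 020816_06, and at 0 in the other 8-cell embryos and all morulas. The same 2 embryos had no PSMB11 count in SPIA. In RefSeq PSMB11 is a neighbour of PSMB5, and PSMB8 and PSMB9 are neighbours.

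**Figure D3:**
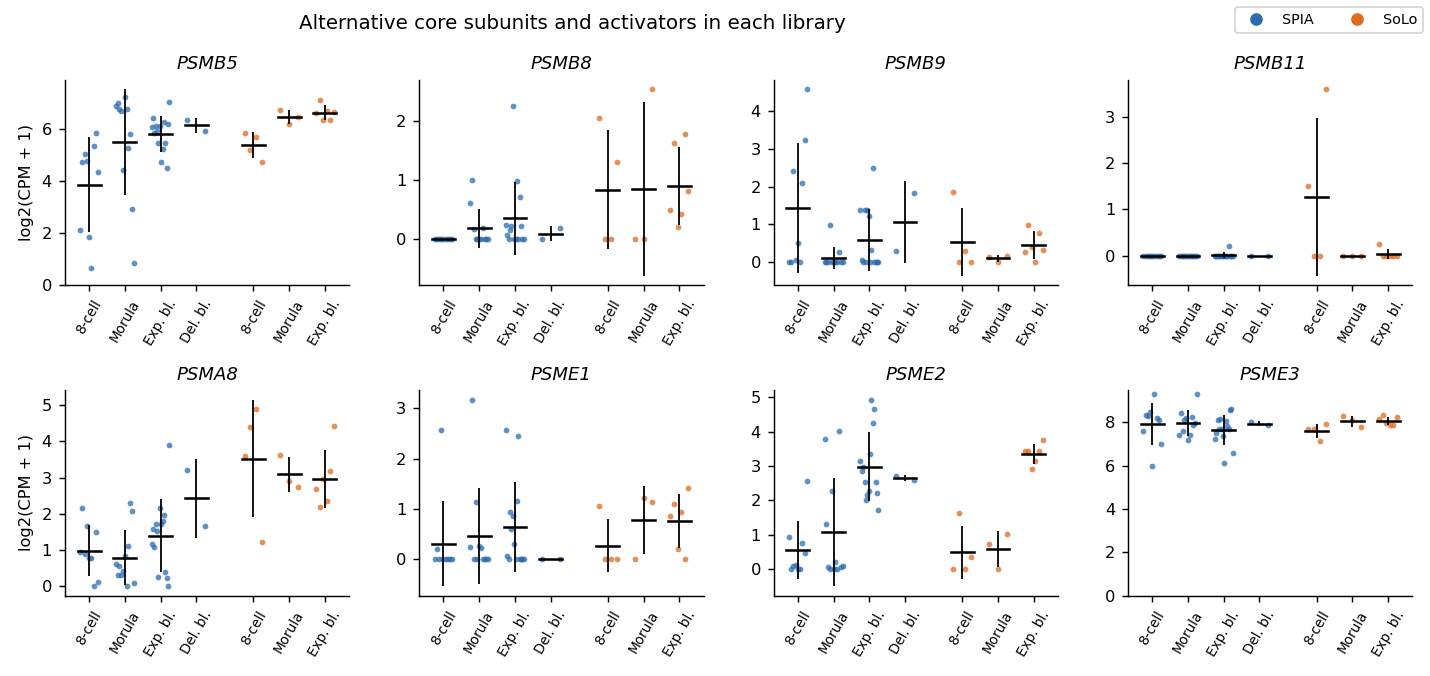
Level of the standard catalytic subunit PSMB5 beside alternative core subunits and activators in every library, as log2(CPM + 1), with group means (lines) and SD (bars). Vertical scales differ between panels. PSMB8 has no count in the SPIA 8-cell embryos, PSMB11 is above 1 CPM in only 2 SoLo 8-cell embryos, and PSME2 is above 2 CPM in all expanded blastocysts of both kits.

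The base of the regulatory particle is built from 6 ATPases. From 8-cell to expanded blastocyst PSMC2 and PSMC6 rose in both kits, PSMC4 fell in both, PSMC1 was called higher in SoLo alone, and PSMC3 and PSMC5 were not called. PSMC4 in SoLo was at 231, 234, 275 and 286 CPM in 8-cell embryos, 120, 128 and 156 in morulas and 88.8 to 150 (median 121) in expanded blastocysts. The 8-cell range lay above both later stages. In SPIA its medians were 79.9, 50.6 and 33.2 CPM over the same stages, with overlap, and the lowest 8-cell value (0.638) was that of 020816_09. PSMC4 fell by 1.10 ± 0.18 on the log2 scale in SoLo (edgeR adjusted p = 0.000226) and by 1.43 ± 0.46 in SPIA (edgeR adjusted p = 0.0117) from 8-cell to expanded blastocyst. Without the 3 embryos with cumulus transcripts the SPIA change of PSMC4 was -1.18 ± 0.53 and was not called (edgeR adjusted p = 0.0769).

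PSMC6 was low in SPIA, with medians of 0.435, 2.29 and 2.82 CPM in 8-cell embryos, morulas and expanded blastocysts. In SoLo the 8-cell embryos held 0.134, 6.90, 7.77 and 9.69 CPM, the morulas 17.4, 21.5 and 24.7, and the expanded blastocysts 14.4 to 30.1 (median 20.4). The 8-cell embryo 112815_02 was far below the other 3, and no 8-cell embryo reached the later stages. The log2 change to the expanded blastocyst was 2.54 ± 0.93 in SPIA (edgeR adjusted p = 0.0286) and 1.76 ± 0.67 in SoLo (edgeR adjusted p = 0.0467). To the morula it was 2.22 ± 0.94 and 1.79 ± 0.74 and was not called. Without the 3 embryos with cumulus transcripts the SPIA change to the expanded blastocyst was 2.71 ± 1.13 (edgeR adjusted p = 0.0576). PSMC2 had SPIA medians of 80.1, 99.2 and 153 CPM, and its log2 change to the expanded blastocyst was 1.34 ± 0.38 in SPIA and 1.03 ± 0.27 in SoLo.

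PSMC1 and PSMC5 were called from 8-cell to morula in SoLo alone, with log2 changes of 0.94 ± 0.26 and 1.11 ± 0.29. PSMC1 was at 31.9, 34.0, 38.8 and 47.2 CPM in SoLo 8-cell embryos and 63.9, 74.1 and 81.1 in morulas, without overlap. In SPIA PSMC1 had medians of 3.74 and 6.99 CPM in these stages and a log2 change of -0.13 ± 0.79. The highest SPIA 8-cell level was 31.6 CPM in 020816_06, the others being at most 11.3, and without that embryo the change was 0.68 ± 0.82. Without morula 021016_02 the SoLo changes were 0.93 ± 0.30 for PSMC1 (edgeR adjusted p = 0.0542) and 0.97 ± 0.33 for PSMC5 (edgeR adjusted p = 0.0672), and without morula 021016_03 they were 0.87 ± 0.29 and 0.96 ± 0.32, none of them called.

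Of the 10 non-ATPase subunits of the regulatory particle, 4 rose from 8-cell to morula in SoLo, where 9.78% of all genes rose, and 2 fell in SPIA, where 10.3% of all genes fell. Those that rose in SoLo were PSMD2, a scaffold of the base, PSMD3 and PSMD11 of the lid, and PSMD14, the enzyme that cuts ubiquitin chains from substrates. PSMD14 was at 49.7, 66.3, 94.2 and 111 CPM in SoLo 8-cell embryos, 155, 193 and 203 in morulas and 133 to 243 (median 151) in expanded blastocysts. Its log2 change to the morula was 1.19 ± 0.29 (edgeR adjusted p = 0.00974), and no 8-cell embryo overlapped a later stage. In SPIA PSMD14 had a log2 change of 0.87 ± 0.43 and was not called, while without morula 022916_02 it was 1.0 ± 0.37 (edgeR adjusted p = 0.042). PSMD11 had log2 changes of 1.01 ± 0.24 in SoLo and 1.12 ± 0.44 in SPIA, where the adjusted p was 0.0635 by edgeR.

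PSMD3 was called from 8-cell to morula in SoLo alone. In SoLo it was at 32.8, 38.9, 56.6 and 86.2 CPM in 8-cell embryos, 111, 114 and 138 in morulas and 132 to 159 (median 143) in expanded blastocysts, without overlap with the 8-cell embryos. In SPIA 8-cell embryos it ran from 1.46 to 427 CPM with a median of 34.6, the highest value being that of 020816_09, and morulas ran from 17.1 to 177 with a median of 50.1. The log2 change to the morula was 1.17 ± 0.28 in SoLo (edgeR adjusted p = 0.00874) and -0.39 ± 0.60 in SPIA. Without 020816_09 the SPIA change of PSMD3 was 0.65 ± 0.56, so 1 library set its sign.

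PSMD4, a ubiquitin receptor, and PSMD1, a scaffold of the base, were called lower in SPIA morulas. PSMD4 ran from 0.132 to 190 CPM in 8-cell embryos (median 21) and from 0.577 to 21.9 in morulas (median 9.16), with a log2 change of -2.15 ± 0.80 (edgeR adjusted p = 0.0497). The ranges overlapped. The change of PSMD4 was -2.12 ± 0.81 under DESeq2 size factors (edgeR adjusted p = 0.0545), -2.04 ± 0.81 without morula 022916_02 (edgeR adjusted p = 0.0618), -1.58 ± 0.88 without the 3 embryos with cumulus transcripts (edgeR adjusted p = 0.205) and -1.40 ± 0.80 without 020816_06 alone (edgeR adjusted p = 0.222), and none of these was called. PSMD1 ran from 182 to 490 CPM (median 275) and from 127 to 321 (median 171), with a log2 change of -0.72 ± 0.26 (edgeR adjusted p = 0.0461), and it was not called without 8-cell embryo 020816_09 (-0.67 ± 0.25, edgeR adjusted p = 0.0573) or without morula 022916_02 (-0.70 ± 0.27, edgeR adjusted p = 0.0505). In SoLo PSMD4 was at 54.4, 95.2, 98.7 and 101 CPM in 8-cell embryos and 49.4, 75.7 and 75.8 in morulas, and PSMD1 at 123, 220, 242 and 348 against 253, 291 and 331. The SoLo log2 changes were -0.38 ± 0.28 and 0.32 ± 0.28 and were not called.

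The assembly chaperones of the regulatory particle (PSMD5, PSMD9, PSMD10) were all lower in expanded blastocysts than in 8-cell embryos as fitted, and PSMD9 was called in both kits. PSMD9 in SoLo was at 34.4, 34.7, 42.9 and 45.8 CPM in 8-cell embryos, 24.5, 36.3 and 42.7 in morulas and 14.3 to 28.8 (median 18.3) in expanded blastocysts, which did not reach the 8-cell range. In SPIA its medians were 33.1, 7.57 and 6.19 CPM, with overlap. PSMD9 fell by 0.99 ± 0.31 on the log2 scale in SoLo (edgeR adjusted p = 0.019) and by 1.82 ± 0.72 in SPIA (edgeR adjusted p = 0.0422). Without the expanded blastocyst 111715_05, the smallest library, the SPIA change of PSMD9 was -1.75 ± 0.74 (edgeR adjusted p = 0.0569), without 020816_06 -1.79 ± 0.75 (0.0557) and without the 3 embryos with cumulus transcripts -1.72 ± 0.82 (0.0985). PSMD10 fell in SPIA alone, from a median of 61.0 to 16.4 CPM (log2 change -1.50 ± 0.55, edgeR adjusted p = 0.0291), against -0.04 ± 0.35 in SoLo, and without 020816_06 the SPIA change was -1.40 ± 0.58 (edgeR adjusted p = 0.0521).

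**Figure D4:**
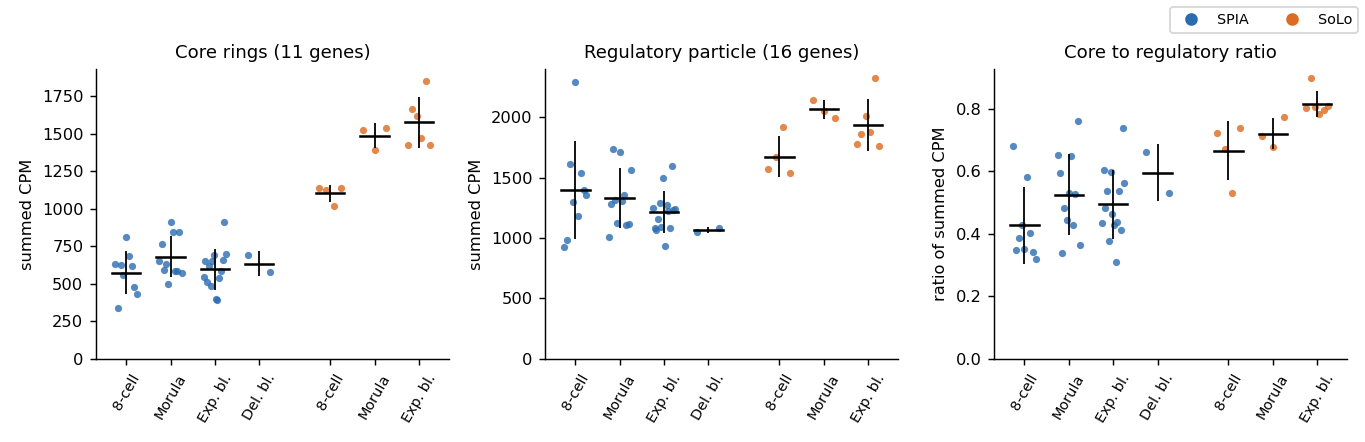
Summed CPM of the 11 core ring genes, of the 16 regulatory particle genes, and the ratio of these sums, in every library by stage and kit, with group means (lines) and SD (bars). The SoLo 8-cell core sums (1021 to 1136 CPM) lie below all later SoLo libraries (1392 to 1855 CPM), while the SPIA groups overlap throughout.

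Summed over members, the core rings were at 1104 ± 55.9 CPM (SD, n = 4) in SoLo 8-cell embryos, 1487 ± 82.6 (n = 3) in morulas and 1577 ± 170 (n = 6) in expanded blastocysts. In SPIA the sums were 576 ± 141 (n = 9), 681 ± 138 (n = 11), 596 ± 134 (n = 14) and, in delayed blastocysts, 635 ± 81.6 (n = 2). The regulatory particle sums were 1676 ± 172, 2066 ± 77.2 and 1937 ± 212 CPM in SoLo and 1399 ± 407, 1331 ± 249, 1216 ± 174 and 1067 ± 25.9 in SPIA. The SoLo 8-cell libraries lay below the later ones for the core, and they overlapped with expanded blastocysts for the regulatory particle. No correction for gene length was made, so the core and regulatory sums cannot be compared with each other, only between libraries.

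Of the 4 activators, PSME4 was called in both kits from 8-cell to morula and PSME2 in both from 8-cell to expanded blastocyst. PSME4 (PA200), a nuclear activator known for its part in histone degradation, rose to the morula in both kits. Its SPIA medians were 215 CPM in 8-cell embryos (range 0.821 to 509), 540 in morulas (302 to 752) and 365 in expanded blastocysts (259 to 677), with 333 and 445 CPM in delayed blastocysts. In SoLo it was at 314, 337, 479 and 489 CPM in 8-cell embryos, 836, 1237 and 1656 in morulas, and 653 to 1184 (median 820) in expanded blastocysts. All SoLo morulas and expanded blastocysts were above the 8-cell embryos, and in SPIA only 2 of the 8-cell embryos reached the morula range. The log2 change to the morula was 1.23 ± 0.40 in SPIA (edgeR adjusted p = 0.025) and 1.62 ± 0.25 in SoLo (edgeR adjusted p = 0.000351). From morula to expanded blastocyst it was -0.43 ± 0.35 and -0.55 ± 0.23 and was not called.

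PSME2, a subunit of the interferon-inducible PA28 ring, rose to the blastocyst from near 0. In SPIA its median was 0.0755 CPM in 8-cell embryos (highest 4.97, in 112815_02), 0.0610 in morulas (highest 15.1) and 5.58 in expanded blastocysts (2.27 to 29.5), with 4.99 and 5.55 CPM in delayed blastocysts. In SoLo it was at 0, 0, 0.267 and 2.09 CPM in 8-cell embryos, 0, 0.642 and 1.05 in morulas, and 6.55 to 12.7 (median 9.84) in expanded blastocysts. Every SoLo expanded blastocyst was above every earlier SoLo embryo, and in SPIA 3 of 11 morulas reached the blastocyst range. The log2 change from 8-cell to expanded blastocyst was 3.52 ± 1.23 in SPIA (edgeR adjusted p = 0.0219) and 3.95 ± 1.31 in SoLo (edgeR adjusted p = 0.0246). From morula to expanded blastocyst it was 4.02 ± 1.49 in SoLo, not called by edgeR (adjusted p = 0.192) and called by DESeq2 (adjusted p = 0.0157).

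PSME1, which pairs with PSME2 in the PA28 ring and is its neighbour in RefSeq, was called in no contrast. Its level was 0 CPM in 7 of 9 SPIA 8-cell embryos, 6 of 11 morulas, 6 of 14 expanded blastocysts and both delayed blastocysts, and its highest SPIA level was 7.99 CPM. In SoLo its highest level was 1.66 CPM. PSME3, which forms the nuclear PA28 gamma ring, was called in no stage contrast: its SPIA medians were 295, 251 and 207 CPM and its SoLo medians 205, 273 and 264 CPM. PSMF1 (PI31), an inhibitor of the core in vitro and an adaptor for its transport, had SPIA medians of 18.5, 21.2 and 16.3 CPM and was not called either.

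The core assembly chaperones moved in both directions in SPIA. PSMG1, which helps build the alpha ring, ran from 89.2 to 959 CPM in SPIA 8-cell embryos (median 317), from 76.6 to 366 in morulas (median 196) and from 42.5 to 214 in expanded blastocysts (median 138). In SoLo it was at 54.9, 109, 117 and 139 CPM in 8-cell embryos, 58.9, 63.3 and 95.3 in morulas and 48.6 to 83.8 in expanded blastocysts. The ranges overlapped in both kits. PSMG1 fell by 1.04 ± 0.36 on the log2 scale to the morula (edgeR adjusted p = 0.034) and by 1.70 ± 0.33 to the expanded blastocyst (edgeR adjusted p = 0.000122) in SPIA, and the SoLo changes of -0.53 ± 0.31 and -0.63 ± 0.26 were not called. Its SPIA change to the morula was -0.83 ± 0.36 without 020816_06 (edgeR adjusted p = 0.0977) and -0.96 ± 0.40 without the 3 embryos with cumulus transcripts (edgeR adjusted p = 0.083). PSMG4 was nearly absent from SPIA 8-cell embryos, with counts in 3 of 9 and a highest level of 0.663 CPM, and it had counts in 7 of 11 morulas and 12 of 14 expanded blastocysts with highest levels of 3.88 and 3.41 CPM. It was called higher in both later SPIA stages (edgeR adjusted p = 0.0488 and 0.0138), and in SoLo its levels of 0, 0, 1.74 and 3.74 CPM against 0.147, 7.06 and 7.21 were not. The SPIA call of PSMG4 in morulas was at a log2 change of 3.58 ± 1.34, and without 020816_09 this was 3.43 ± 1.36 (edgeR adjusted p = 0.0738), without 020816_06 it was 3.42 ± 1.37 (0.0704), without expanded blastocyst 111715_05 it was 3.58 ± 1.34 (0.052) and without the 3 embryos with cumulus transcripts 5.47 ± 1.65 (0.0189). Of the 2 non-subunits with a matching symbol, PSMC3IP fell from 8-cell to morula in SPIA (log2 change -2.20 ± 0.77) and PSME3IP1 fell from 8-cell to expanded blastocyst in SPIA and SoLo (-1.47 ± 0.59 and -1.20 ± 0.34). PSMC3IP was not called without the 3 embryos with cumulus transcripts (-2.26 ± 0.85, edgeR adjusted p = 0.0565), nor PSME3IP1 in SPIA without 020816_09 (-1.13 ± 0.59, edgeR adjusted p = 0.133).

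The SPIA 8-cell embryos and morulas were also fitted alone, which changed the scaling and the genes kept by the filter (9329 in place of 15578). In that fit 0 of 35 members were called, and 446 genes in all in place of 3024. At an unadjusted p under 0.05 it held 8 of 35 members, against 2048 of 9329 genes. The log2 changes in that fit were 1.99 ± 0.75 for PSMA1 (edgeR adjusted p = 0.116), 1.81 ± 0.76 for PSMB5 (0.158), 1.27 ± 0.50 for PSME4 (0.13) and -1.02 ± 0.40 for PSMG1 (0.136). Within the shared title code 020816 none was called among 37 members. At an unadjusted p under 0.05 there were 2 of these members, against 1279 of 11244 genes. The log2 change there was 0.98 ± 1.29 for PSMA1, 2.68 ± 1.14 for PSMB5, 1.66 ± 1.03 for PSME4 and -1.38 ± 0.84 for PSMG1. These kept the sign of the full comparison. Calls of members from 8-cell to morula in SoLo fell from 12 of 40 to 5 of 38 (4 higher, 1 lower) when those 2 stages were fitted alone. The share of all genes called fell from 16.7% to 10.0% of 12601 genes (4.80% higher, 5.25% lower). No title code is shared between SoLo stages, so no within-code value could be had there.

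No member was called between the 2 delayed and the 14 expanded blastocysts. edgeR called 0 of 40 members and 0 of 15578 genes (0%), with 0 members and 196 genes at an unadjusted p under 0.05. DESeq2 called 22 genes, none of them a member, and voom called 1 gene and no member. The members' median log2 difference was -0.04, against -0.24 over all genes. Ranges did not overlap for 0 of 40 members (0.886% of all genes). Both delayed values of PSMA1, PSMB5, PSMC2 and PSME4 lay inside the range of expanded blastocysts. Within the shared title code 112515 (2 against 2 libraries) edgeR called none of 38 members. There 0 members had an unadjusted p under 0.05, against 557 of 9503 genes.

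The kits were compared over the 13 embryos with a library in each, with stage as a term. This fit did not pair the libraries of an embryo. SoLo differed from SPIA for 19 of 38 members (11 higher, 8 lower), against 27.9% of 10578 genes (12.1% higher, 15.8% lower). Of the core ring genes 5 of 11 were higher in SoLo and none lower, while the regulatory particle had 4 higher and 5 lower of 16. With the embryo as a block over the 11 numbered pairs, 18 of 38 members were called (9 higher, 9 lower), against 24.8% of 10672 genes (12.1% higher, 12.7% lower). In the same pairs without the block 14 were called (6 higher, 8 lower), against 22.3% of genes (8.98% higher, 13.3% lower). Between these fits of the same libraries PSMD11 was called only without the block (edgeR adjusted p = 0.0472, and 0.0727 with it), and PSMB1, PSMB3, PSMC3, PSMD4 and PSMD5 were called only with it (edgeR adjusted p of PSMD4 0.308 and 0.0417, of PSMC3 0.0614 and 0.0351).

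The chaperones PSMG1 and PSMG3 and the ATPases PSMC1, PSMC2 and PSMC6 were among the called members. Scaled over both kits, PSMG1 ran from 104 to 1570 CPM in SPIA (median 274) and from 38.0 to 118 in SoLo (median 56.3), and SoLo was lower in all 11 numbered pairs (log2 difference -2.50 ± 0.26, edgeR adjusted p = 1.08e-08). PSMG3 had medians of 23.7 and 6.64 CPM and was higher in SoLo in 1 of 11 pairs (-2.37 ± 0.47, edgeR adjusted p = 0.000217). PSMC6 had medians of 3.45 CPM in SPIA and 14 in SoLo and was higher in SoLo in 10 of 11 pairs (2.20 ± 0.45, edgeR adjusted p = 0.000369). PSMC1 had medians of 7.87 and 41.9 CPM (2.14 ± 0.45, edgeR adjusted p = 0.000468, SoLo higher in 10 of 11 pairs). PSMC2, of the same ATPase ring, was lower in SoLo in all 11 pairs (-1.30 ± 0.19, edgeR adjusted p = 3.03e-06).

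**Figure D5:**
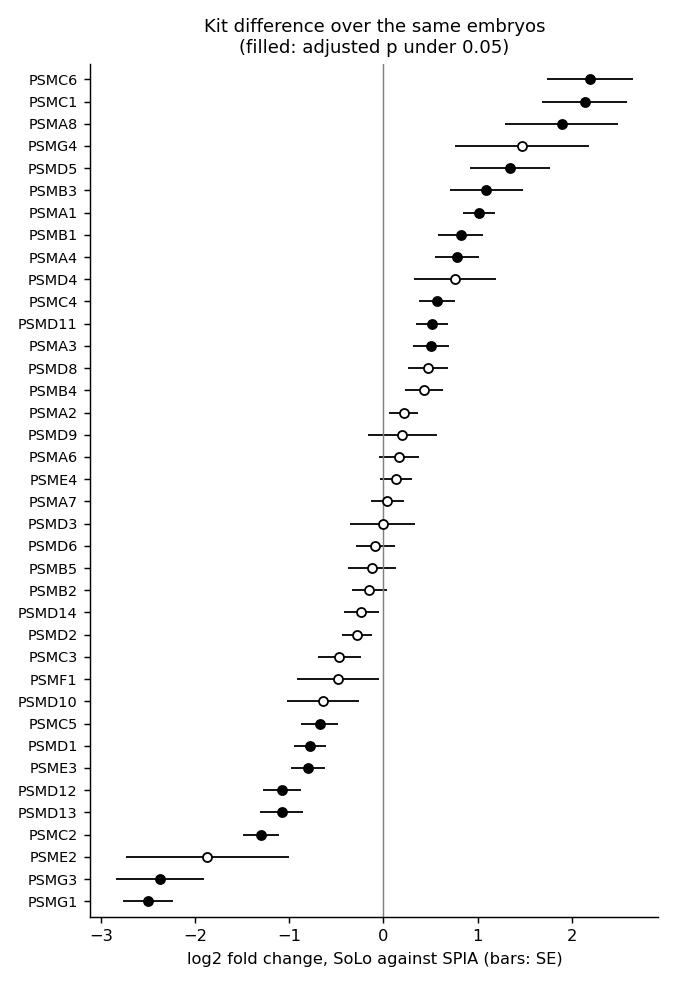
Log2 fold difference of each tested member between SoLo and SPIA libraries of the same 13 embryos, with stage as a term. The fit did not pair the libraries of an embryo. Points are edgeR estimates, bars are 1 standard error and filled points have an adjusted p under 0.05. Values run from -2.50 for PSMG1 to 2.20 for PSMC6, and 19 of 38 members are filled.

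Whether a stage change itself differed between kits was tested over the same embryos. No gene was called for either change (0% of 14873), and no member at an adjusted p under 0.05 of 41 tested. For the change from 8-cell to morula, 4 of 41 members had an unadjusted p under 0.05, against 1425 of 14873 genes, a near equal share. All 4 had the more positive change in SoLo, namely PSMD1, PSME4, PSMD2 and PSMB1 (edgeR adjusted p = 0.414, 0.422, 0.456 and 0.473). The median of the members' differences was 0.80, against 0.18 over all genes. That fit did not pair the libraries of an embryo. With the embryo as a block over the 11 numbered pairs these medians were 0.40 and -0.09. In the same pairs without the block they were 0.79 and 0.18. For the change from morula to expanded blastocyst no member had an unadjusted p under 0.05, against 783 of 14873 genes.

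Other genes of the pathway were taken from lists of 36 genes, of which 30 had a row. From 8-cell to morula, 3 of 31 identifiers rose and 1 fell in SPIA, and 7 rose and 0 fell in SoLo, against the shares of all genes given above. NFE2L2, a transcription factor of the oxidative stress response that binds proteasome gene promoters, rose in both kits: its mean level was 8.30 ± 14.8 CPM (SD, n = 9) in SPIA 8-cell embryos and 37.8 ± 22.2 (n = 11) in morulas, and 14.6 ± 5.87 (n = 4) and 78.8 ± 10.6 (n = 3) in SoLo. The log2 changes were 2.19 ± 0.65 (edgeR adjusted p = 0.0157) and 2.44 ± 0.34 (edgeR adjusted p = 0.00016). NFE2L1, which drives proteasome genes when proteasome activity is limiting, rose in SoLo (1.78 ± 0.26, edgeR adjusted p = 0.000285) and had a log2 change of 0.41 ± 0.50 in SPIA. There the 8-cell embryo 020816_09 held 666 CPM of NFE2L1 and the other 8 between 13.6 and 82.5, and without 020816_09 the change was 1.71 ± 0.41 and was called (edgeR adjusted p = 0.00458). UCHL5, a deubiquitinase of the regulatory particle, rose in both kits (1.28 ± 0.47 and 1.66 ± 0.39). Without the 3 embryos with cumulus transcripts neither UCHL5 (1.16 ± 0.56, edgeR adjusted p = 0.138) nor NFE2L2 (1.73 ± 0.72, edgeR adjusted p = 0.0848) was called in SPIA, and UCHL5 was not called without 020816_09 (1.26 ± 0.48, edgeR adjusted p = 0.0595), 020816_06 (1.33 ± 0.50, 0.0511) or 111715_05 (1.28 ± 0.48, 0.0505). VCP, the unfoldase that delivers substrates, and ECPAS, a proteasome scaffold, rose in SoLo alone (1.45 ± 0.20 and 1.12 ± 0.27). MAFG, a partner of these transcription factors, fell by 2.11 ± 0.61 in SPIA and had a log2 change of 0.72 ± 0.45 in SoLo, and without the 3 embryos with cumulus transcripts the SPIA value was -1.71 ± 0.70 (edgeR adjusted p = 0.0771). Of 6 genes of antigen presentation with a row, 5 were tested in SPIA and 4 in SoLo, and none was called from 8-cell to morula.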

How the data were processed

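Single rhesus embryos were sequenced, and the authors deposited a table of raw read counts per gene. HISAT2 and DESeq2 are named per the submitters' processing notes; no counter, build, annotation or strand setting is given in the sources used here. Of 52 columns 49 were matched to samples by title, 2 of them (SoLo expanded blastocysts) without an embryo number, and 3 columns were not used. Members and lists were chosen with earlier results of these data known. Named members were the list PSMA1, PSMA4, PSMA7, PSMA8, PSMB1, PSMB3, PSMB5, PSMB8, PSMB9, PSMB11, PSMC1, PSMC2, PSMC6, PSMD1, PSMD3, PSMD4, PSMD9, PSMD10, PSME1 to PSME4, PSMF1, PSMG1 and PSMG4. This list was not set blind to the stage changes in these data. PSMA7, PSMB1, PSMC1, PSMD1 and PSMD3, the called members whose change had opposite signs in the kits, are all on it. Any other member was also named after its values were seen.

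Counts were filtered for low levels, scaled by TMM within each kit and tested with edgeR 4.0.16 (R 4.3.3), all stages of a kit in 1 fit, with Benjamini-Hochberg adjustment over all genes. Alternatives used DESeq2 1.42.0 and limma 3.58.1 (voom), DESeq2 size factors, no filter, fewer libraries and an embryo block. The edgeR test was tested on simulated data, where its SPIA calls held a larger share of false ones than the nominal rate, mostly among genes of low level; calls of PSMB9, PSMG4 and PSME2 are therefore given with the values of their libraries. Ratios and figures used Python 3.11.15, numpy 2.4.6, pandas 2.3.3, scipy 1.17.1 and matplotlib 3.10.9. SoLo held 3 morulas with a matched column. The planned ratio of PSMB8 to PSMB5 was left out because PSMB8 had no count in many libraries. Embryos with the same title in both kits were taken as the same embryo; over 11 numbered pairs the deviations from the stage means had a median correlation of 0.23, with 10 over 0.1, and for 10 of 11 the correlation with the namesake was the highest. Gene names and neighbours came from the RefSeq rhesus assembly, which may differ from the files' build; 6 members overlap a coding gene there. Counts of PCR-amplified reads are not counts of molecules, so limits cover counting error only.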

Additional observations from a re-analysis of the deposited data

Results flagged for a closer look

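In groups of 4 to 10 libraries, 10 of 73 combinations of a named member and a group had a library far from the others (Dixon's test on log2 CPM + 1). Chance gives about 1 in 20 for normally distributed values, which genes near 0 are not. Where 1 library alone has counts it is flagged whatever its level, as for PSMB11 and PSME1 in SoLo below. The number of flags can therefore not be set against that rate. Among SPIA 8-cell embryos, PSME4 was at 0.821 CPM in 020816_09 against a group median of 215, PSME2 at 4.97 in 112815_02 against 0.0755, PSME1 at 4.91 in 020816_07 and PSMG4 at 0.663 in 112815_02 against medians of 0. Among SoLo 8-cell embryos, PSMC6 was at 0.134 CPM in 112815_02 against 7.34 and PSMD4 at 54.4 in the same embryo against 96.9. In the SoLo 8-cell embryo 020816_06 PSMB9 was at 2.61 CPM against a median of 0.113 and PSME1 at 1.09 against 0. Among SoLo expanded blastocysts PSMD4 was at 92.9 CPM in 111715_04 against 63.6, and PSMB11 at 0.200 (1 count) in an unnumbered library against 0. Of these 10 values, 7 belong to the 3 8-cell embryos with cumulus transcripts, whose part in them was not tested. Those embryos gave 3 of the 4 SoLo and 3 of the 9 SPIA 8-cell libraries. Groups outside that size, among them the SPIA morulas (11 libraries) and expanded blastocysts (14), were not scanned.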

How the results depend on the processing

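No call of a member, named or not, turned direction in any stage or kit contrast. Of 635 results under alternatives, 519 kept sign and call and 116 lost the call. Members dropped by the filter of an alternative are not among these results. From 8-cell to morula in SPIA the 8 called members became 0 with those stages fitted alone, 0 within title code 020816, 0 in libraries under 12 M counts, 0 in those of 12 M or more, 3 under voom with the title code as a random block (correlation within codes -0.03), 4 without the 3 embryos with cumulus transcripts, 5 without 8-cell embryo 020816_06 alone (an alternative chosen after seeing the data, as was leaving out morula 022916_02 or blastocyst 111715_05) and 2 in embryos with no SoLo library. The shares of all genes called in these settings, in the same order, were 4.78%, 0.0356%, 3.78%, 0%, 12.7%, 18.2%, 18.7% and 6.49%. From morula to expanded blastocyst in SPIA, voom gave 3 in place of 0 (14.3% of all genes). From 8-cell to expanded blastocyst embryos with no SoLo library gave 1 in place of 11 (18.9% of all genes). In SoLo the 12 members called from 8-cell to morula became 5 with those stages fitted alone and ranged from 7 to 15 when 1 library was left out, 7 being without morula 021016_02. Of all genes 10.0% were called with those stages fitted alone. With 1 library left out it was 11.5% to 18.3%, 11.5% being without 021016_02. From morula to expanded blastocyst in SoLo, DESeq2 and the stages fitted alone each gave 1 (PSME2), and leaving out 1 morula gave 0 to 2, the 2 (PSMC5 and PSME4, lower) being without 022916_01. The shares of all genes were 4.84% by DESeq2, 1.63% with the stages fitted alone and 9.77% without 022916_01. From 8-cell to expanded blastocyst in SoLo leaving out 1 8-cell library gave 16 to 19 (34.3% to 39.0% of all genes). In place of 18 members (15 higher, 3 lower), DESeq2 called 22 of 40 (16 higher, 6 lower), against 44.2% of all genes. With those stages fitted alone it was 22 of 39 (14 higher, 8 lower), against 43.5%. Under DESeq2 size factors it was 20 of 40 (14 higher, 6 lower), against 38.6%. With the embryo as a replicate block the kit comparison called 18 members against 14 in the same pairs without it and 19 in all 13 embryos. The shares of all genes called in these fits were 24.8%, 22.3% and 27.9%.

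Over all genes, the 3024 calls from 8-cell to morula in SPIA became 446 fitted alone, 4634 without a filter, 1979 under voom, 383 and 0 in shallow and deep libraries, 4 within the title code and 962 in embryos with no SoLo library. The 2283 calls from morula to expanded blastocyst became 3792 without a filter, 1297 alone and 657 in embryos with no SoLo library, and the 5708 from 8-cell to expanded blastocyst became 3704 and 2804 in the latter settings. In SoLo 2371 became 3579 under DESeq2 and 1266 alone, and 162 became 679 under DESeq2, 1477 without morula 022916_01, 14 without 021016_02 and 5 without 021016_03. Splits into higher and lower moved from 733 and 1550 to 822 and 1020 (DESeq2) and 1739 and 496 (voom), from 2017 and 3691 to 3982 and 2040 (voom), and in SoLo from 1388 and 983 to 1607 and 1972 (DESeq2). Under voom the median log2 change over all SPIA genes was 0.41 and 0.51 for the latter 2 SPIA changes, against -0.29 and -0.43, and that of the members 0.13 and 0.10, against -0.23 and -0.19.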
